A study of Oryza sativa Japonica Group with 3 samples.

Results

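The 9 cellulose synthase genes of rice, CESA1 to CESA9, were followed in RNA of whole seedlings grown from seed that was left untreated or implanted with nitrogen ions. They were taken by locus identifier, and they are 9 of the 55759 annotated loci in the deposited tables. CESA4, CESA7 and CESA9 form the secondary wall group of 3 genes, and CESA1, CESA2, CESA3, CESA5, CESA6 and CESA8 the group of 6 that serve mainly the primary wall. The grouping came with the gene list and used no value of these libraries. The tables pair no names with identifiers. Each of the 9 names is, however, a synonym of 1 gene in the RefSeq table for assembly ASM3414082v1. For 9 of 9 that gene lies on the chromosome that the locus identifier gives. The RefSeq table holds 0 of the 9 locus identifiers. CESA3, CESA6 and CESA8 share chromosome 7, and CESA2 and CESA5 chromosome 3, so this check cannot tell those names apart.

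The seedlings were of the Japonica cultivar Xindao-18, kept at 28 °C on wet filter paper with 12 h light and 12 h dark, and taken at 96 h. The control library was 1 RNA pool of 50 buds from unimplanted seed. The low fluence library mixed the pools given 1 and 2 in units of 1e+17 N+ ions per square centimetre, 10 µg of RNA from each, and the labels describe its response as without significant damage. The high fluence library mixed the pools given 6 and 8 in the same unit, and its response is labelled significant damage. The labels print the exponent as plain digits, and 1e+17 is the reading adopted here. Every group thus had 1 library of pooled RNA, so no difference below could be set against a spread between replicates, no error is given and no test was run. The buds of each pool were chosen to be of similar height, and growth inhibition was judged later, on the seventh day. The labelled tissue was not checked against marker genes, because no markers were fixed for these whole seedlings and the tables name no genes.

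Cellulose synthases are membrane proteins that join glucose units from UDP-glucose into glucan chains. They work in multi-subunit complexes in the plasma membrane, and the chains of one complex bundle into a cellulose microfibril. Growing cells lay down a primary wall that must stretch, and cells such as those of xylem and sclerenchyma add a secondary wall once growth has stopped. In rice, loss of CESA4, CESA7 or CESA9 makes the culm brittle, and the products of these genes are needed together. In a young seedling both kinds of wall are being made, in different cells.

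Values are FPKM, the fragments counted on each kilobase of a transcript relative to all mapped fragments, summed over the transcripts of a locus, and can be set against each other between genes because they are per length. All 9 genes were measured in all 3 libraries, the lowest value being 11.1 FPKM. Primary wall genes made up most of the family. The secondary wall group summed to 96.6 FPKM in control seedlings, 79.3 at low and 108 at high fluence, and the primary wall group to 657, 566 and 630.4 FPKM in the same order. The secondary wall group thus held 12.8% of the family's FPKM in control seedlings, 12.3% at low and 14.6% at high fluence. The family as a whole was 0.124% of the FPKM sum of annotated loci in control seedlings, 0.110% at low and 0.140% at high fluence. In RNA of whole seedlings, fewer cells of a type and less RNA per cell cannot be told apart.

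Among the primary wall genes, CESA8 (LOC_Os07g10770) was the most abundant in every library, at 214 FPKM in control seedlings, 197 at low and 209 at high fluence. CESA3 (LOC_Os07g24190) came second in every library, at 142, 133 and 186 FPKM in that order of libraries. CESA6 (LOC_Os07g14850) stood at 131 FPKM in control seedlings, 96.0 at low and 73.5 at high fluence. CESA6 is the one gene whose deposited level was lower with each step in fluence, an order that equal FPKM totals did not keep, and it ranked above CESA1 except at high fluence. CESA1 (LOC_Os05g08370) stood at 109 FPKM in control seedlings, 89.5 at low and 97.2 at high fluence. CESA5 (LOC_Os03g62090) stood at 49.0, 39.4 and 46.0 FPKM in the same order. Both were lowest at low fluence, and CESA5 kept the fifth place in every library. CESA2 (LOC_Os03g59340) was the least abundant of the 9 in every library, at 12.4 FPKM in control seedlings, 11.1 at low and 19.1 at high fluence. Its high fluence value thus stood apart from the other 2, which lay close together.

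The secondary wall genes lay close to one another in level. CESA9 (LOC_Os09g25490) stood at 35.6 FPKM in control seedlings, 29.9 at low and 36.0 at high fluence. CESA7 (LOC_Os10g32980) stood at 33.9, 26.7 and 38.1 FPKM and CESA4 (LOC_Os01g54620) at 27.1, 22.7 and 33.4 FPKM, in the same order of libraries. Each was lowest at low fluence and highest at high fluence, and for CESA9 the control and high fluence values were nearly equal. CESA9 led CESA7 in the control and at low fluence, and CESA7 led CESA9 at high fluence. The closeness in level and these orders leave out the assembled units listed beside the genes, described below. With those units added, CESA7 stood at 92.5 FPKM in control seedlings and 84.4 at high fluence. CESA4 then stood at 56.6 and 52.4 FPKM and CESA9 at 58.3 and 47.0 FPKM, so each was higher in the control.

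**Figure D1:**
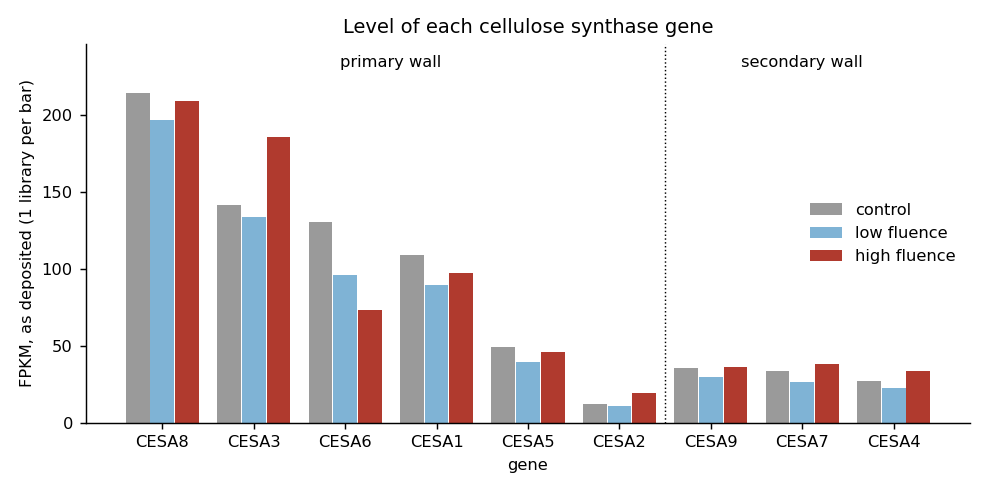
Level of each gene in FPKM as deposited (vertical axis), with 1 bar per library in the order control, low fluence and high fluence, primary wall genes left and secondary wall genes right of the dotted line. CESA8 reaches 214 FPKM in the control and CESA2 stays at 19.1 FPKM or less, and the deposited CESA6 values are 131 FPKM in control seedlings, 96.0 at low and 73.5 at high fluence.

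The comparison of high fluence with control asked how seedlings from fluences that inhibited growth differed from untreated ones. Differences are log2 ratios of (FPKM + 1), and a gene was called 2-fold apart when that ratio reached 2 either way. By this rule 0 of the 9 genes were called, where 10.6% of the 18934 annotated loci averaging 1 FPKM or more over the libraries and 7.58% of the 9265 averaging 10 FPKM or more were. At a ratio of 1.5 or more, 0 genes were higher and 1 was lower, against 10.9% and 17.7% of the loci averaging 1 FPKM or more. This split holds for the values as deposited. Median-of-ratios and upper-quartile scaling each gave 1 higher and 1 lower. Equal annotated sums gave 2 higher and 1 lower, and equal FPKM totals 8 higher and 0 lower. The share of all loci was not counted under these scalings. Over the loci averaging 10 FPKM or more, the median log2 ratio was -0.04, 0.01, 0.04 and 0.64 in that order. The last of these medians itself passes a ratio of 1.5. The lower gene was CESA6, whose level of 73.5 FPKM at high fluence, against 131 FPKM in the control, gave a log2 ratio of -0.82, 1.77-fold lower, a direction lost only under equal FPKM totals among the scalings below. CESA2, with 19.1 FPKM at high fluence and 12.4 FPKM in the control, had the highest log2 ratio, 0.58, just under the ratio of 1.5. It passed that ratio with a pseudocount of 0.1, at 0.62, and under median-of-ratios, upper-quartile and equal annotated-sum scaling, at 0.69, 0.74 and 0.77. These 2 genes of the primary wall group marked the ends of the family, and the secondary wall genes lay between them.

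CESA3 had a log2 ratio of 0.39 between high fluence and control, the second highest of the family. For the secondary wall genes the log2 ratios were 0.29 for CESA4, 0.16 for CESA7 and 0.02 for CESA9. As deposited, all 3 turned negative, at -0.11, -0.13 and -0.30, when the assembled units listed beside these loci were added. CESA8, CESA5 and CESA1 had log2 ratios of -0.03, -0.09 and -0.16. The median over the 3 secondary wall genes was 0.16 and over the 6 primary wall genes -0.06, beside -0.15 over the 9265 annotated loci averaging 10 FPKM or more. Set against that median of all loci, CESA6 stood 0.67 lower, CESA2 0.73 higher, CESA3 0.54 higher and CESA4 0.44 higher on the log2 scale. A ratio as low as that of CESA6 or lower was found for 8.31% of those loci, and one as high as that of CESA2 or higher for 7.45%.

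The direction of 4 primary wall genes in this comparison depended on the scaling of the libraries. The 2 highest transcripts of each library held 73.3% of all FPKM in control seedlings, 76.3% at low and 53.0% at high fluence. Rescaling to equal totals of 1000000 FPKM moved the median log2 ratio of loci between high fluence and control by 0.79. Under that rescaling 9 of 9 genes were above the control, with CESA6 the lowest at a log2 ratio of 0.03. Median-of-ratios, upper-quartile and equal annotated-sum scaling moved the median by 0.11, 0.16 and 0.19, and under these CESA6 stayed below the control at -0.71, -0.66 and -0.62. CESA5 and CESA8 lay below the control as deposited and above it under all 4 of these scalings, and CESA1 under 2 of them. CESA2, CESA3, CESA4, CESA7 and CESA9 lay above the control under each scaling.

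**Figure D2:**
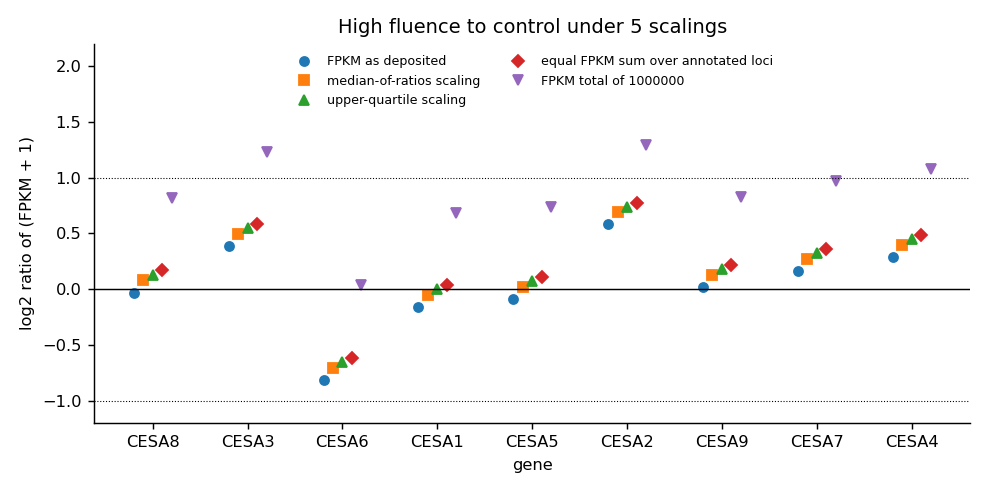
Log2 ratio of (FPKM + 1) between high fluence and control for each gene (vertical axis) under the deposited values and 4 rescalings, with dotted lines at a ratio of 2. CESA6 is the lowest gene under each, at -0.82 as deposited and 0.03 after rescaling to equal totals, the one scaling under which it lies above 0.

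The comparison of low fluence with control asked how seedlings from fluences without significant growth inhibition differed from untreated ones. Of the 9 genes, 0 were 2-fold apart, where 6.58% of annotated loci averaging 1 FPKM or more and 2.01% of those averaging 10 FPKM or more were. At a ratio of 1.5 or more the count was again 0, where 17.6% of the larger set of loci passed. All 9 had a lower value at low fluence than in the control, with log2 ratios between -0.44 and -0.09 and a median of -0.25. The median was -0.07 over annotated loci averaging 10 FPKM or more, so most of those loci were lower too. Their exact share was not counted. Ratios as low as those of CESA3, CESA8 and CESA2 or lower were found for 47.2%, 42.4% and 38.6% of those loci. The lower direction of all 9 genes held under each of the 4 rescalings. CESA6 again had the lowest ratio, -0.44, from 96.0 FPKM at low fluence and 131 FPKM in the control, and 9.47% of those loci had a ratio as low or lower. The secondary wall genes had log2 ratios of -0.33 for CESA7, -0.25 for CESA4 and -0.25 for CESA9. Of the primary wall genes, CESA5 had -0.31, CESA1 -0.28, CESA2 -0.15, CESA8 -0.12 and CESA3 -0.09. The median was -0.25 over the secondary and -0.21 over the primary wall genes, so the wall types lay side by side. The control library is shared with the comparison above.

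The comparison of high with low fluence set the more damaging fluences against the less damaging ones. Again 0 of 9 genes were 2-fold apart, where 8.18% of annotated loci averaging 1 FPKM or more and 4.14% of those averaging 10 FPKM or more were. At a ratio of 1.5 or more, 1 gene was higher and 0 lower, against 8.84% and 13.2% of loci. The number higher by that ratio was 2, 3, 4 and 9 under median-of-ratios, upper-quartile, equal annotated-sum and equal total scaling, with 0 lower under each. The share of all loci was not counted under these scalings. Over annotated loci averaging 10 FPKM or more, the median log2 ratio was -0.02, 0.01, 0.06 and 0.83 in that order. The last of these medians itself passes a ratio of 1.5. The gene called as deposited was CESA2, at 19.1 FPKM at high fluence and 11.1 FPKM at low fluence, a log2 ratio of 0.73 or 1.66-fold, and 2.40% of annotated loci averaging 10 FPKM or more had a ratio as high or higher. CESA4 and CESA7 followed with log2 ratios of 0.54 and 0.49, then CESA3 with 0.47 and CESA9 with 0.26. CESA5, CESA1 and CESA8 had log2 ratios of 0.22, 0.12 and 0.09. CESA6 alone was lower at high than at low fluence, with a log2 ratio of -0.38, except after rescaling to equal totals, which gave 0.60 and moved the median of loci by 0.92. The median was 0.49 over the secondary and 0.17 over the primary wall genes, beside -0.09 over those loci.

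**Figure D3:**
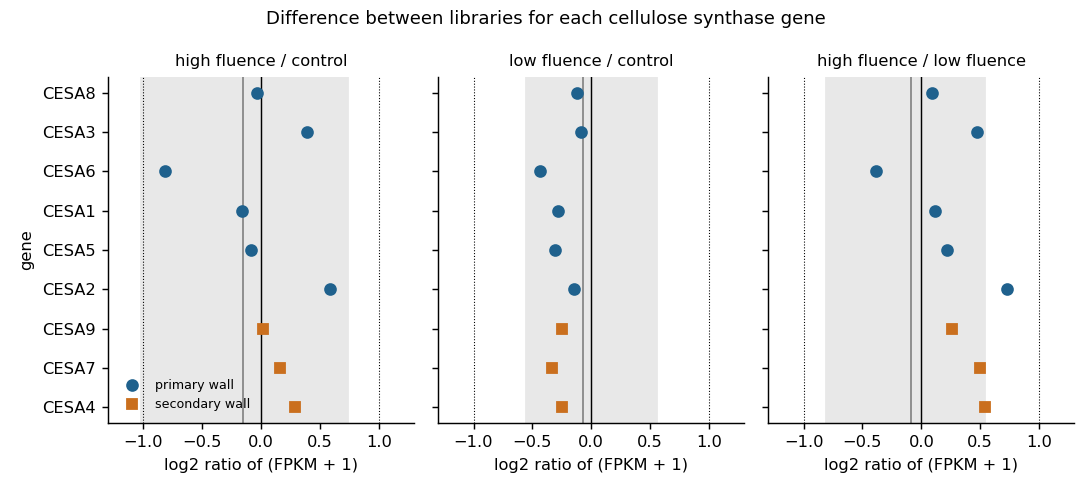
Log2 ratio of (FPKM + 1) for each gene (horizontal axis) in the 3 comparisons of FPKM as deposited, with circles for primary and squares for secondary wall genes. Grey bands span the 5th to 95th percentile of annotated loci averaging 10 FPKM or more, the grey line is their median and dotted lines mark a ratio of 2. CESA6 is the leftmost gene in each panel, at -0.82, -0.44 and -0.38, of which the first and the last lie above 0 after rescaling to equal totals, and CESA2 in the comparison of high with low fluence, at 0.73, lies outside the band.

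The balance of the wall types was read within each library, where library scaling cancels. The ratio of the secondary to the primary wall sum was 0.147 in control seedlings, 0.140 at low and 0.171 at high fluence. It was 1.16 times the control at high fluence, 0.952 times the control at low fluence, and 1.22 times as high at high as at low fluence. With the assembled units listed beside the genes added, described below, it was 0.922 times the control at high fluence. With CESA1, CESA3 and CESA8 alone as primary wall genes it was 1.05 times the control at high fluence. Without CESA8 it was 1.17 times, and by geometric means 1.13 times. Without CESA6, an alternative chosen after its values were seen, the ratio was 0.193 at high fluence and 0.184 in the control, 1.05 times as high. Leaving out CESA6, the gene with the lowest ratio of high fluence to control, could only lower that figure. The ratio without CESA6 was 0.919 times the control at low fluence, and 1.14 times as high at high as at low fluence. The remaining 5 primary wall genes summed to 557 FPKM at high fluence and 526 FPKM in the control.

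Inside the secondary wall group the proportions differed little between libraries. CESA4 held 28.1% of the group's FPKM in control seedlings, 28.7% at low and 31.1% at high fluence. CESA7 held 35.1%, 33.7% and 35.4%, and CESA9 36.8%, 37.6% and 33.5%, in the same order. The ratio of any 2 of these genes differed at most 1.22-fold between the library where it was largest and that where it was smallest. These shares and ratios leave out the assembled units listed beside the genes. With those units added, CESA7 stood at 92.5 FPKM in control seedlings, beside 56.6 for CESA4 and 58.3 for CESA9. The share of CESA7 was then larger, and shares on that basis were not computed.

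The primary wall group was less even, and the shares of CESA6 and CESA3 differed between libraries in opposite directions. CESA6 held 19.9% of the group's FPKM in control seedlings, 17.0% at low and 11.7% at high fluence. CESA3 held 21.6%, 23.6% and 29.4%, and CESA2 1.89%, 1.96% and 3.03%. CESA8, CESA1 and CESA5 kept shares that varied less in proportion to their size, CESA8 between 32.6% and 34.8%, CESA1 between 15.4% and 16.6% and CESA5 between 6.95% and 7.46%. CESA3 was thus 1.09 times CESA6 in the control, 1.39 times at low fluence and 2.52 times at high fluence. The largest difference between libraries in the ratio of a pair was 2.73-fold, for CESA2 and CESA6, and the median over the 15 pairs of primary wall genes was 1.58-fold, against 1.18-fold over the 3 secondary wall pairs. Pairs that share a gene are not independent, and no test was made of this contrast.

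**Figure D4:**
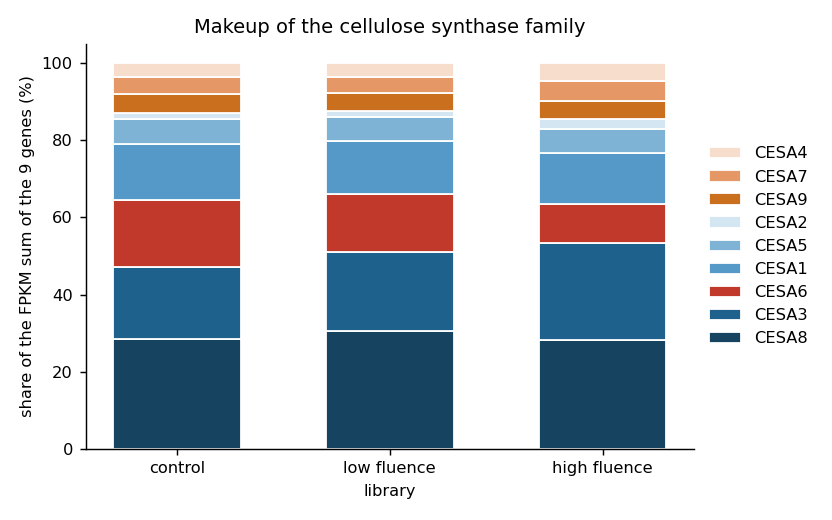
Share of each gene in the FPKM sum of the 9 genes (vertical axis, %) in the control, low fluence and high fluence libraries, with secondary wall genes at the top in orange tones and CESA6 in red. CESA6 takes 17.3% of the sum in control seedlings, 14.9% at low and 9.96% at high fluence, while CESA3 takes 18.8%, 20.7% and 25.1%.

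Reads of some loci may have been divided with transcripts assembled from the reads, which carry no gene name or position in the tables. Of the 9 genes, 8 had 1 annotated transcript. CESA3 had 3, of which the first carried nearly all of its FPKM, 184 of 186 at high fluence. Beside here means next in the order in which the transcripts are listed. That order puts CESA3 before CESA8 and CESA6, against their locus numbers, so it need not mean neighbours on the chromosome. Assembled units were listed directly beside all 3 secondary wall genes and, among primary wall genes, beside CESA3 and CESA5, the units of these last not exceeding 1.24 FPKM. The unit beside CESA4 stood at 29.5 FPKM in control seedlings, 23.0 at low and 19.0 at high fluence, and that beside CESA7 at 58.6, 35.8 and 46.3 FPKM. Those on either side of CESA9 stood at 14.4, 13.8 and 11.0 FPKM, and at 8.30 FPKM, listed at 0 and 0.000149 FPKM. Each of the units beside secondary wall genes was lower at high fluence than in the control as deposited. With all these units added, the ratio of secondary to primary wall sums was 0.922 times the control at high fluence, a turn of direction. Each of CESA4, CESA7 and CESA9 then lay below the control at high fluence as deposited, with the log2 ratios given above. Added units were not combined with the rescalings, so the direction of these 3 genes under both is not known. Whether these units belong to the CESA loci was not tested. No assembled unit was listed directly beside CESA1, CESA2, CESA6 or CESA8.

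Many other loci showed a pattern like that of the secondary wall genes. By the distance between pairs of log2 ratios to control over the 3 libraries, the annotated loci averaging 10 FPKM or more nearest to the mean of CESA4, CESA7 and CESA9 were LOC_Os02g07890, at 16.9 FPKM in control seedlings, 13.8 at low and 19.1 at high fluence, and LOC_Os01g68050, at 14.4, 11.8 and 16.1 FPKM. The tables do not name either of them. A total of 218 of 9256 loci, 2.36%, lay as close to that mean as the farthest of the 3 genes did.

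Total counts were not analysed here, so absolute depth and counting error are unknown. The most common ratio among the lowest values of single-transcript loci would put the low fluence library at about 0.499 times the depth of the control. The high fluence library would be at 1.36 times. These ratios were shared by 33.3% of 559 and 28.4% of 983 such loci. They stand for depth only if FPKM was scaled by it, which was not checked. Values above 0 were listed for 24804 annotated loci in control seedlings, 23652 at low and 25815 at high fluence. The share of depth in the lower values of all 9 genes at low fluence was not tested.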

How the data were processed

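The authors deposited FPKM, 1 value per transcript and library, per the file headers. The submitters' processing notes name TopHat2 2.0.5. Not given in the sources used here are what computed FPKM, on which build and annotation, and whether by strand. The 3 tables list the same 87523 transcripts, of which 66081 belong to annotated loci and 21257 were assembled from reads. FPKM were summed per locus with Python 3.11.15 and pandas 2.3.3, and compared on the scale of log2(FPKM + 1), where differences of low genes come out too small. The scale and the folds of 2 and 1.5 were applied to all loci. The calling step was run on simulated data with little noise and set differences well above a ratio of 2. That run checks the arithmetic only, and cannot show how well differences of the size seen here are called. With 1 library per group there was no test.

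All 9 genes are named, with the 2 loci nearest in pattern to the secondary wall genes. The members and lists were chosen with earlier results of these data known. A list of 10 further cell wall loci was left out, because neither the tables nor the RefSeq table pairs those identifiers with names. Relative depth is the most common ratio of values under 0.2 FPKM between 2 libraries among loci with 1 transcript. No sequences are shown. Alternatives were other scalings, pseudocounts of 0.1 and 5, the first transcript alone, assembled units added, and other definitions of the wall ratio.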

Additional observations from a re-analysis of the deposited data

How the results depend on the processing

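The count of genes at least 2-fold apart stayed at 0 in each comparison under both other pseudocounts, with the first transcript alone, with assembled units added and under median-of-ratios, upper-quartile and equal annotated-sum scaling. Rescaling to a total of 1000000 FPKM, which the 2 highest transcripts of each library govern, gave 3 genes higher at high fluence than in the control. It gave 8 higher at high than at low fluence. The median log2 ratios over the 9 genes were then 0.83 and 1.19, beside 0.64 and 0.83 over annotated loci averaging 10 FPKM or more. The share of all loci called was not counted under any rescaling. A threshold of 1.5 in place of 2 gave 1 gene in each of these comparisons as deposited. Under the rescalings it gave 1 to 8 higher and 0 to 1 lower genes for high fluence against control, and 2 to 9 higher and 0 lower for high against low fluence. The secondary to primary wall ratio with assembled units added was 0.316 in control seedlings, 0.268 at low and 0.291 at high fluence. As a ratio of geometric means it was 0.404, 0.392 and 0.457 in the same order, and without CESA8 it was 0.215 at low fluence. The levels by geometric means and without CESA8 moved by the construction of the ratio. The level with units added depends on whether those units belong to the CESA loci, which was not tested. Between high fluence and control the secondary to primary wall ratio lay between 0.922 and 1.17 times over all alternatives. No replicate could be left out, and no paired analysis was possible because each group has 1 library. The unknown depth sets no counting interval on any value.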
